A study of Homo sapiens with 18 samples.

Results

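The genes described here are 10 genes of protein folding and of the unfolded protein response in the endoplasmic reticulum (ER): HSPA5, HSP90B1, CALR, PDIA4, DNAJB9, SDF2L1, HERPUD1, XBP1, ERN1 and ATF6. They were chosen by name, from what their products do, out of the 58735 genes counted, with earlier results of these data known. All 10 were found once in both count tables, and all 10 passed the filter on low counts in both. The study sequenced RNA of A549 and H358, which are established human lung adenocarcinoma cell lines, with RAD21 knocked down or overexpressed. The RAD21 protein closes the ring of cohesin, a complex that holds sister chromatids together and folds chromatin into loops.

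The groups were A549 shRAD21, A549 cells given a lentiviral short hairpin RNA against RAD21, beside A549 shNC, the same line with a control vector. H358 shRAD21 and H358 shNC were made in the same way from H358 cells. A549 RAD21OE, cells that overexpressed RAD21, stood beside A549 EV, cells with an empty vector. With 3 libraries in each of 6 groups there were 18 libraries, and every control group carried a vector although its genotype is labelled wild type. The knockdown and the overexpression carry different batch labels and were counted in separate tables, so levels are compared only within a table. The number of hairpins, the promoter behind the overexpressed RAD21, whether lines are pools or clones, and the time from transduction to harvest are not stated in the sources at hand. The labels do not tell whether the libraries of a group are separate cultures. The p-values therefore rest on variation from library to library that could be technical alone.

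Proteins that enter the ER are folded there by chaperones and by enzymes that form disulfide bonds. When unfolded proteins build up, sensors in the ER membrane (ERN1, also called IRE1; ATF6; and PERK, encoded by EIF2AK3) switch on the unfolded protein response. Activated ERN1 splices the mRNA of XBP1 into the form that encodes an active transcription factor, cleaved ATF6 enters the nucleus as a transcription factor, and both raise the genes of chaperones and of ER-associated degradation. The PERK arm slows translation and raises the transcription factor ATF4. Counts per gene do not separate the spliced and unspliced forms of XBP1, and no splicing, cleavage or protein was measured.

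ATF6 and XBP1 act through short promoter elements, and these are shown because the members differ in which of them their promoters hold. The ER stress element (ERSE, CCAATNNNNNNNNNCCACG), its variant ERSE-II (ATTGGNCCACG) and the core TGACGTGG of the unfolded protein response element (UPRE) were searched on both strands of RefSeq promoters (build GRCh38.p14), from 250 bases before to 50 bases after each RefSeq start. All 10 genes had a promoter in the RefSeq table. An exact ERSE stood in 4 of them, HSPA5, HSP90B1, CALR and XBP1, with 5 matches in all, whereas 27 of 35093 human promoters (0.0769%) held one. An ERSE-II stood in HERPUD1 and SDF2L1, against 19 of 35093 promoters (0.0541%). The UPRE core stood in none of the 10 and in 256 promoters (0.729%). The match and its flanks are given 5′ to 3′ on the strand of the gene, with the match in capitals. Matches that read CGTGG first lie on the opposite strand.
HSPA5, chr9:125241371-125241429, minus strand: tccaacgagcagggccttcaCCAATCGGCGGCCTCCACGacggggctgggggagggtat
HSP90B1, chr12:103930211-103930239, plus strand: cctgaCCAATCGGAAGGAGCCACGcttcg
HSP90B1, chr12:103930316-103930344, plus strand: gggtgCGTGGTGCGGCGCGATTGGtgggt
CALR, chr19:12938364-12938422, plus strand: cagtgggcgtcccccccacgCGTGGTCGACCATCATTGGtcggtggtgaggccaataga
XBP1, chr22:28800598-28800626, minus strand: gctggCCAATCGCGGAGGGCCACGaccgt
HERPUD1, chr16:56932020-56932040, plus strand: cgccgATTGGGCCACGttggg
SDF2L1, chr22:21642094-21642144, plus strand: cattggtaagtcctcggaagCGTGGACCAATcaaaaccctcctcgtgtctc
The ERSE of HSPA5 lay 48 to 66 bases before the start, and that of XBP1 34 to 52 bases before it. HSP90B1 held one at 71 to 89 bases and another at 176 to 194 bases, in opposite orientations. The promoters of PDIA4, DNAJB9, ERN1 and ATF6 held no exact match to these letters in this window. The RefSeq start of HSP90B1 lies downstream of its GENCODE start, so its matches fall within the gene's span given next. An exact match is a description of sequence, not a measured binding site. The letters searched are elements already known from this response, so finding them in its genes is no independent result. The shares of all promoters are given for scale only.

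In the genome build hg38, with the annotation of GENCODE 29, HSPA5 lies at chr9:125234853-125241330 on the minus strand, HSP90B1 at chr12:103930107-103953645 on the plus strand and CALR at chr19:12938578-12944489 on the plus strand. PDIA4 lies at chr7:149003062-149028641 on the minus strand, DNAJB9 at chr7:108569568-108574850 on the plus strand and SDF2L1 at chr22:21642261-21644298 on the plus strand. HERPUD1 lies at chr16:56932048-56944863 on the plus strand, XBP1 at chr22:28794555-28800597 on the minus strand, ERN1 at chr17:64039142-64130819 on the minus strand and ATF6 at chr1:161766294-161964070 on the plus strand. Reads were counted over the merged exons of each gene. Exons of HSP90B1, CALR and DNAJB9 overlap exons of other genes on the other strand over 4.81%, 9.95% and 6.45% of their length, and HSP90B1 over 2.79% on its own strand. Genes named below overlap too, among them RAD21 (14.2% on the other strand), EIF2AK3 (15.07%) and DDIT3 (31.6%, and 8.03% on its own strand). Whether the counting used strand is not stated in the sources at hand, so reads in these stretches cannot be assigned to one gene with certainty.

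The 12 libraries of the knockdown held 15155077 to 19277568 counts each and the 6 of the overexpression 13024640 to 14276335. Enough reads for a test were found for 18939 genes in the first table and 15462 in the second. RAD21 itself fell to 128.9, 131.8 and 101.1 CPM (read counts scaled to one library size, TMM factors included) in A549 shRAD21, against 256.9, 252.9 and 254.6 CPM in A549 shNC, which is 47.4% of the control mean. It fell to 378.8, 427.0 and 432.6 CPM in H358 shRAD21, against 568.8, 588.8 and 602.8 CPM in H358 shNC, or 70.4%. It rose to 1520, 1501 and 1306 CPM in RAD21OE, against 195.3, 208.6 and 194.4 CPM in EV, 7.23-fold. The groups did not overlap in any of the 3 comparisons (edgeR quasi-likelihood F-test, adjusted p = 2.99e-08, 0.000671 and 2.9e-10; exact permutation test p = 0.1 in each, the smallest that 3 against 3 allows). The knockdown was deeper in A549 than in H358 (difference in log2 fold change 0.57, SE 0.12, adjusted p = 0.00228).

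A pair of libraries was unlike its own group. A549 shRAD21 replicate 3 differed from replicates 1 and 2 by a median of 0.31 and 0.3 on the log2 scale per gene, in either direction, against 0.12 between those 2. For RAD21OE replicate 3 it was 0.27 and 0.23, against 0.13, and no other pair of replicates exceeded 0.15. Genes of high GC content were relatively high in both libraries. The deviation of a library from its group mean had a rank correlation with GC content (Spearman's rho, over genes) of -0.480, -0.436 and 0.624 in replicates 1 to 3 of A549 shRAD21 and -0.578, -0.387 and 0.686 in RAD21OE. The changes of the 10 genes in these comparisons are therefore given also without replicate 3. These deviations are from the group's own mean, so they do not tell which libraries depart from the controls. A fit without replicate 3 does not remove a trend on GC content. The epithelial markers EPCAM, KRT8, KRT18, KRT19 and CDH1 were present in every group, at a summed 11266 to 13974 CPM in A549 shRAD21 against 7124 to 7547 in shNC, 4603 to 4791 in H358 shRAD21 against 4508 to 4812 in shNC, and 10375 to 13572 in RAD21OE against 8233 to 8435 in EV. In A549 the sum was mostly KRT8 and KRT18, and each marker was higher in shRAD21. In H358 shRAD21 KRT8, KRT18 and CDH1 were higher. EPCAM (470.1 to 483.7 CPM against 524.5 to 559.4) and KRT19 (1249 to 1348 against 1440 to 1553) were lower there. In RAD21OE KRT8 and KRT18 were higher, CDH1 was lower (46.84 to 59.67 CPM against 61.33 to 78.09), and EPCAM and KRT19 overlapped with EV. Of the lung lineage markers all 4 stayed under 1 CPM in A549. In H358 NKX2-1 had 149.1 to 162.6 CPM in shRAD21 against 113.8 to 125.3 in shNC, while SFTPB, SFTPC and SCGB1A1 stayed under 1 CPM. All 4 leukocyte markers were at most 1.96 CPM. Of the fibroblast markers COL1A1 had 15.26 to 41.87 CPM and LUM at most 5.51, while COL1A2, PDGFRB and DCN stayed under 1 CPM. The endothelial markers VWF and CDH5 were at most 2.02 and 0.64 CPM. PECAM1 had 1.12 to 2.20 CPM in H358 shRAD21 against 2.99 to 4.55 in shNC, and stayed under 1 CPM in A549. Of the plasma cell markers, a cell type with high XBP1, IGHG1, JCHAIN and MZB1 were under 1 CPM. SDC1, which epithelial cells also express, had 236.9 to 365.4 CPM in A549 shRAD21 against 287.6 to 299.7 in shNC, 384.4 to 417.3 in H358 shRAD21 against 320 to 357.5 in shNC, and 352.5 to 432.5 in RAD21OE against 325.3 to 340.8 in EV. The part of the shifts in the epithelial markers, NKX2-1 and SDC1 in the results below was not tested, and in bulk RNA a change in every cell and a change in the share of cells that express a gene cannot be told apart.

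The 10 genes did not all move in one direction in any comparison. In A549 after knockdown 1 of the 10 was higher (XBP1) and 3 were lower (CALR, PDIA4 and ERN1) at an adjusted p under 0.05, where 14.4% of all genes tested were higher and 10.9% lower. In H358 after knockdown none was higher and 5 were lower (HSPA5, PDIA4, HERPUD1, XBP1 and ERN1), where 3.78% of all genes were higher and 4.62% lower. With RAD21 overexpressed 2 were higher (HSPA5 and HERPUD1) and 2 lower (HSP90B1 and DNAJB9), where 14.1% of all genes were higher and 13.7% lower. As the 10 genes were chosen with earlier results known, these shares are given for scale and are no test of the set. The median log2 fold change of the 10 genes was -0.10 in A549 after knockdown, -0.23 in H358 after knockdown and -0.01 with overexpression, beside 0.005, 0 and -0.015 for all genes tested. PDIA4 and ERN1 fell in both lines after knockdown, and none of the 10 was called in the same direction in all 3 comparisons. In A549 after knockdown 4 were higher and 5 lower without shRAD21 replicate 3. There 1 was lower without shNC replicate 1, shNC replicate 3 or shRAD21 replicate 2. The SE of HSP90B1 was 0.0778 with all libraries and 0.0384 without shRAD21 replicate 3. Shares of all genes were not computed for fits without a library. A gain in calls over all genes therefore cannot be told from one in these 10. With overexpression 2 were lower without RAD21OE replicate 3, CALR in place of DNAJB9, and 1 was lower without any other library.

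**Figure D1:**
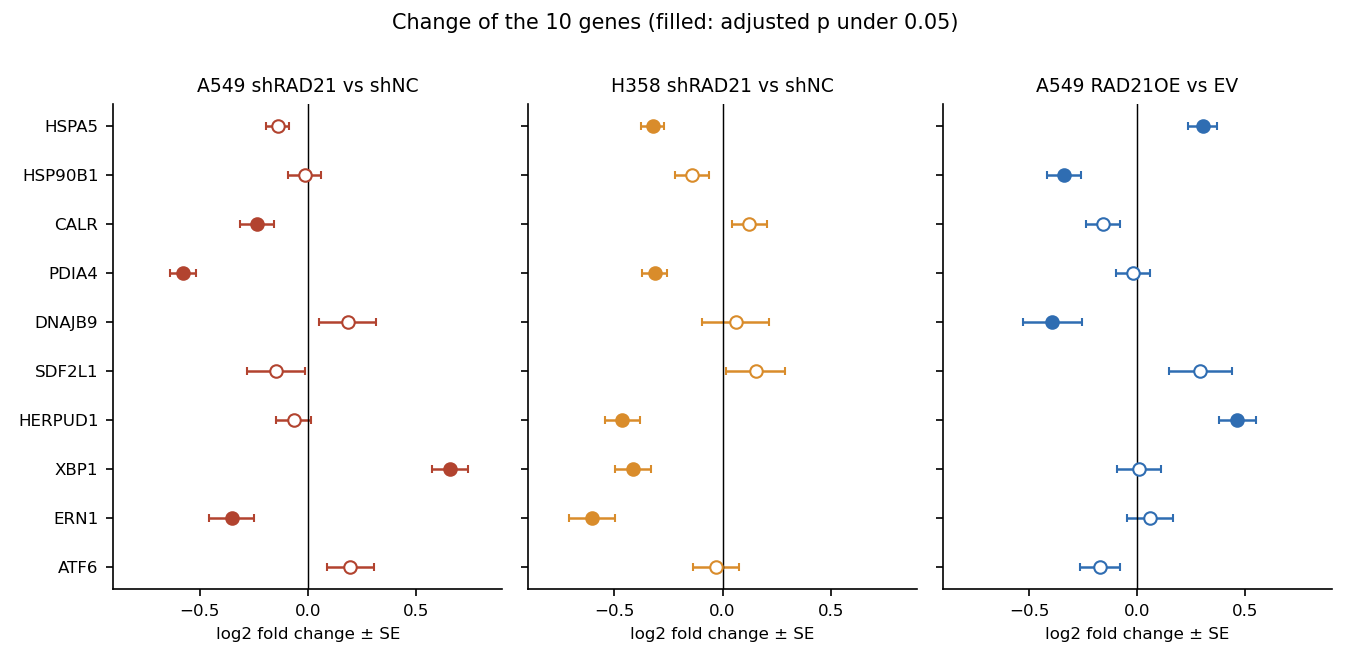
Log2 fold change (shRAD21 over shNC in A549 and in H358, RAD21OE over EV in A549) of the 10 genes, one gene per row, with bars of 1 SE from the edgeR fit. Filled points passed an adjusted p under 0.05: XBP1 stands at 0.66 in A549 and at -0.41 in H358 after knockdown, and HSPA5 at -0.32 in H358 after knockdown and at 0.30 with overexpression.

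HSPA5 encodes BiP, the Hsp70 chaperone of the ER lumen, which binds unfolded chains and also holds the stress sensors inactive. It had 679.6, 617.8 and 614.5 CPM in A549 shRAD21, against 700.8, 701.0 and 702.5 CPM in A549 shNC. All 3 knockdown libraries were below all 3 controls, but the change (log2 fold change -0.14, SE 0.05) did not pass the threshold (adjusted p = 0.0664); it passed in 7 of 15 alternative settings, among them the fit without shRAD21 replicate 3 (-0.11, adjusted p = 0.0248) and that without shRAD21 replicate 1 (adjusted p = 0.0192). In H358 shRAD21 it had 975.9, 928.4 and 962.0 CPM, against 1209, 1175 and 1198 CPM in H358 shNC. HSPA5 fell there to 80.03% of the control mean, with all 3 knockdown libraries below the lowest control library (a log2 change of -0.32, SE 0.05, adjusted p = 0.000897). In RAD21OE it had 782.2, 795.2 and 855.1 CPM, against 657.9, 658.9 and 656.2 CPM in EV. It rose there by 0.30 on the log2 scale (SE 0.07, adjusted p = 0.00644), and all 3 overexpressing libraries lay above all 3 controls. Without the library that stands apart the rise was 0.26 (adjusted p = 0.000144). The knockdown change did not pass a test of its difference between the lines (-0.18, adjusted p = 0.104).

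HSP90B1 encodes GRP94, the Hsp90 chaperone of the ER, and shares the ERSE with HSPA5. It had 693.6, 705.3 and 596.7 CPM in RAD21OE, against 835.2, 873.0 and 816.3 CPM in EV. All 3 overexpressing libraries were below the controls, so HSP90B1 fell where HSPA5 rose (log2 fold change -0.34, SE 0.08, adjusted p = 0.00726). The fall was -0.27 without RAD21OE replicate 3 (adjusted p = 0.000222) and -0.22 once GC content and length were corrected for (adjusted p = 0.00156). In A549 shRAD21 it had 829.9, 837.3 and 635.7 CPM, against 774.1, 770.9 and 781.9 CPM in shNC. Replicates 1 and 2 lay above the controls and replicate 3 below them, and the log2 fold change was -0.01 (SE 0.08, adjusted p = 0.938). Without replicate 3 it turned to 0.10 (adjusted p = 0.0243), and after the GC and length correction it was -0.16 (adjusted p = 0.00558). In H358 shRAD21 it ranged from 673.1 to 685.6 CPM, against 735.1 to 766.4 CPM in shNC. The groups did not overlap, and the change (-0.14, SE 0.08) did not pass the threshold (adjusted p = 0.2996), whereas it passed when only the 6 libraries of that line were fitted (adjusted p = 0.00365).

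CALR encodes calreticulin, the lectin chaperone that holds glycoproteins while they fold. It had 360.4, 357.3 and 457.2 CPM in A549 shRAD21, against 460.7, 468.0 and 452.8 CPM in shNC. Replicates 1 and 2 were far below the controls and replicate 3 lay among them. The log2 fold change was -0.23 (SE 0.08, adjusted p = 0.0386), and it was -0.36 without replicate 3 (adjusted p = 8.18e-09). The call was lost in 7 of 15 alternative settings, with adjusted p up to 0.183 without shRAD21 replicate 2, 0.162 without shRAD21 replicate 1, 0.0713 to 0.112 without any 1 shNC library, 0.0972 with only the 6 libraries of the line and 0.101 after the GC and length correction, which left -0.10. In H358 shRAD21 it ranged from 441.4 to 479.8 CPM, against 395.0 to 432.5 CPM in shNC, without overlap (0.12, SE 0.08, adjusted p = 0.381). That change passed when only the 6 libraries of that line were fitted (0.13, adjusted p = 0.0254). In RAD21OE it ranged from 411.6 to 479.2 CPM, against 474.1 to 506.8 CPM in EV (-0.16, SE 0.08, adjusted p = 0.143). That change was -0.22 without RAD21OE replicate 3 (adjusted p = 0.00206).

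PDIA4 encodes ERp72, a protein disulfide isomerase that works beside BiP. It had 247.8, 230.6 and 248.4 CPM in A549 shRAD21, against 354.8, 373.4 and 355.6 CPM in shNC. Here replicate 3 lay with its replicates, and PDIA4 fell to 67.1% of the control mean (-0.58 on the log2 scale, SE 0.06, adjusted p = 8.38e-07). In H358 shRAD21 it had 358.4, 340.0 and 333.6 CPM, against 444.1, 428.9 and 409.4 CPM in shNC. It fell there to 80.5% of the control mean, and the groups were apart (-0.31, SE 0.06, adjusted p = 0.00236). Both calls held in each of their 15 alternative settings, and the fall in A549 was -0.59 without shRAD21 replicate 3 (adjusted p = 3.07e-14). In RAD21OE it ranged from 291.2 to 334.2 CPM, against 300.2 to 332.5 CPM in EV, and the groups overlapped (-0.02, SE 0.08, adjusted p = 0.875; -0.08 without RAD21OE replicate 3, adjusted p = 0.284). The difference in log2 fold change, H358 minus A549, was 0.26 (SE 0.08, adjusted p = 0.0361), a smaller fall in H358. That call was lost in 9 of 20 alternative settings, with adjusted p up to 0.241 after the GC and length correction and up to 0.107 without 1 library (any A549 shNC library, A549 shRAD21 replicate 2, H358 shNC replicate 2 or 3, or H358 shRAD21 replicate 1).

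**Figure D2:**
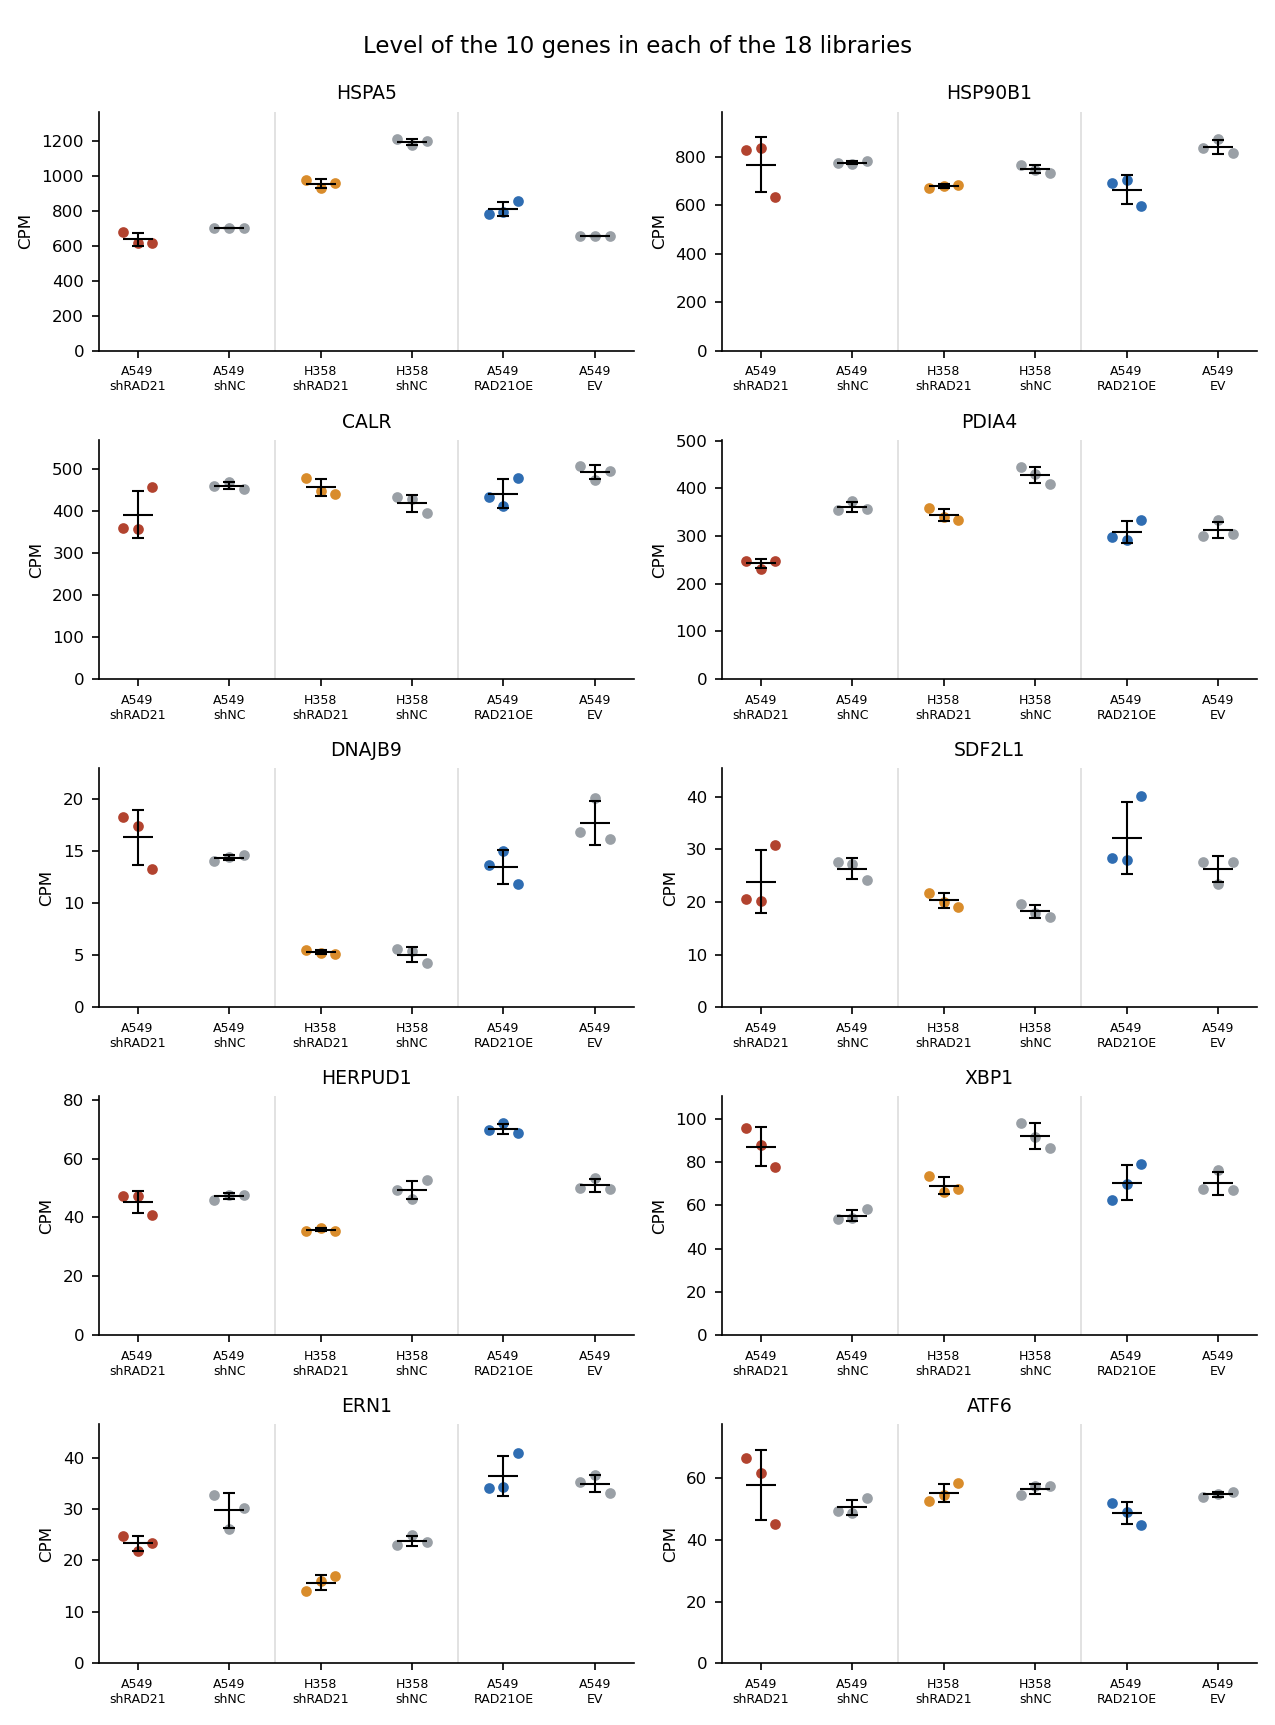
Level in CPM (linear axis from 0) of each of the 10 genes in the 18 libraries, with shRAD21 left of shNC and RAD21OE left of EV. Points are libraries in the order of replicates 1 to 3 and bars are mean ± SD (n = 3); PDIA4 lies between 230.6 and 248.4 CPM in A549 shRAD21, below all shNC libraries, and XBP1 is above its controls in A549 shRAD21 and below them in H358 shRAD21.

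Per length, the cochaperones were the least abundant of the folding genes. DNAJB9 encodes ERdj4, a J-domain partner of BiP that helps return ERN1 to its inactive state. It had 13.6, 14.99 and 11.8 CPM in RAD21OE, against 16.8, 20.1 and 16.2 CPM in EV, with all 3 overexpressing libraries below the controls. Its log2 fold change of -0.39 (SE 0.14) passed narrowly (adjusted p = 0.0480), and the call was lost in 9 of 14 alternative settings. It was lost without any 1 of the 6 libraries (adjusted p = 0.0566 to 0.217; -0.30, adjusted p = 0.0599, without RAD21OE replicate 3), with DESeq2's Wald test (0.0645), with no filter on low counts (0.0526) and after the GC and length correction (-0.24, adjusted p = 0.0921). In A549 shRAD21 it had 18.2, 17.4 and 13.3 CPM, against 14.1, 14.5 and 14.6 CPM in shNC (0.18, SE 0.13, adjusted p = 0.332). Replicates 1 and 2 were above the controls and replicate 3 below, and without replicate 3 the change was 0.31 (adjusted p = 0.0402). In H358 it ranged from 5.10 to 5.51 CPM in shRAD21 and from 4.19 to 5.55 CPM in shNC, and the groups overlapped (0.06, SE 0.16, adjusted p = 0.874).

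SDF2L1 encodes an ER protein that works with BiP and its J-domain partners. It had 20.6, 20.2 and 30.9 CPM in A549 shRAD21, against 27.6, 27.3 and 24.2 CPM in shNC (-0.15, SE 0.13, adjusted p = 0.463). Replicates 1 and 2 were below all controls and replicate 3 above them. Without replicate 3 the change was -0.37 (adjusted p = 0.00206), and after the GC and length correction of all libraries it was 0.16 (adjusted p = 0.138), the opposite sign. In RAD21OE it had 28.4, 28.0 and 40.2 CPM, against 27.7, 23.5 and 27.6 CPM in EV. The change was 0.29 (SE 0.14, adjusted p = 0.149) and 0.10 without RAD21OE replicate 3 (adjusted p = 0.462). In H358 it ranged from 19.1 to 21.8 CPM in shRAD21, against 17.1 to 19.6 CPM in shNC (0.15, SE 0.14, adjusted p = 0.551). SDF2L1 has the highest GC content of the 10 genes, 65.5% of the bases of its longest transcript, where the others ranged from 40.4% to 53.9%.

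HERPUD1 encodes HERP, a membrane protein of the ER that recruits the machinery of ER-associated degradation. It had 35.6, 36.4 and 35.4 CPM in H358 shRAD21, against 49.3, 46.2 and 52.5 CPM in shNC. It fell there to 72.55% of the control mean, and the groups were far apart (log2 fold change -0.46, SE 0.08, adjusted p = 0.00135). In RAD21OE it had 69.7, 71.9 and 68.7 CPM, against 49.9, 53.3 and 49.5 CPM in EV. It rose there to 138% of the control mean (0.46, SE 0.09, adjusted p = 0.00188), and the library that stands apart lay with its replicates. Both calls held in each of their alternative settings, 15 in H358 and 14 with overexpression, where the rise was 0.48 without RAD21OE replicate 3 (adjusted p = 8.76e-06). In A549 shRAD21 it had 47.2, 47.2 and 40.8 CPM, against 46.0, 47.7 and 47.8 CPM in shNC (-0.06, SE 0.08, adjusted p = 0.614), with overlap, and the change was 0.004 without replicate 3. The knockdown change was more negative in H358 than in A549 (-0.40, SE 0.11, adjusted p = 0.0224), but this difference was lost in 11 of 20 alternative settings, with adjusted p up to 0.0890. Among them were the fits without A549 shNC replicate 1, A549 shRAD21 replicate 1 or 2, H358 shNC replicate 1 or 3, or any H358 shRAD21 library.

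XBP1 encodes the transcription factor of the ERN1 arm and had the most divided pattern. It had 95.6, 88.1 and 77.6 CPM in A549 shRAD21, against 53.7, 54.0 and 58.2 CPM in shNC. It rose there to 158% of the control mean, with every knockdown library above all controls (a log2 change of 0.66, SE 0.08, adjusted p = 1.26e-05). In H358 shRAD21 it had 73.6, 66.0 and 67.6 CPM, against 98.1, 91.6 and 86.4 CPM in shNC. It fell there to 75.04% of the control mean, again without overlap (-0.41, SE 0.08, adjusted p = 0.00408). The difference between the lines was -1.07 on the log2 scale (SE 0.12, adjusted p = 6.02e-06), and it passed in all 20 alternative settings, from -1.15 to -0.92. The rise in A549 was 0.73 without shRAD21 replicate 3 (adjusted p = 4.24e-13) and 0.54 after the GC and length correction (adjusted p = 3.72e-07). In RAD21OE it had 62.6, 70.0 and 79.1 CPM, against 67.5, 76.3 and 66.9 CPM in EV, which overlapped (0.01, SE 0.10, adjusted p = 0.968). Without RAD21OE replicate 3 that value was -0.08 (adjusted p = 0.421). The knockdown reached different levels of RAD21 in the lines, and the part of that difference was not tested.

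ERN1, the kinase and RNase that splices XBP1, fell after knockdown in both lines, so it moved with XBP1 in H358 and against it in A549. It had 24.8, 21.8 and 23.3 CPM in A549 shRAD21, against 32.8, 26.2 and 30.3 CPM in shNC, without overlap (-0.35, SE 0.10, adjusted p = 0.0176). It was also -0.35 without shRAD21 replicate 3 (adjusted p = 0.00388). The call was lost in 3 of 15 alternative settings: without shNC replicate 1 (adjusted p = 0.112), without shNC replicate 3 (0.0567) and without shRAD21 replicate 2 (0.0799). In H358 shRAD21 it had 14.1, 16.1 and 16.9 CPM, against 23.04, 24.97 and 23.5 CPM in shNC. It fell there to 65.9% of the control mean (-0.60, SE 0.11, adjusted p = 0.00136), a call kept in all 15 alternative settings. In RAD21OE it had 34.1, 34.2 and 40.9 CPM, against 35.2, 36.5 and 33.1 CPM in EV, with overlap (0.06, SE 0.11, adjusted p = 0.720; -0.03 without RAD21OE replicate 3, adjusted p = 0.817).

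ATF6, the sensor that is itself cut into a transcription factor, passed the threshold in none of the 3 comparisons. It had 66.7, 61.8 and 45.1 CPM in A549 shRAD21, against 49.3, 48.9 and 53.5 CPM in shNC (0.20, SE 0.11, adjusted p = 0.204). Replicates 1 and 2 were above all controls and replicate 3 below them. The change was 0.35 without replicate 3 (adjusted p = 2.97e-05) and 0.02 after the GC and length correction (adjusted p = 0.895). In H358 it ranged from 52.8 to 58.5 CPM in shRAD21, against 54.7 to 57.4 CPM in shNC, and the groups overlapped (-0.03, SE 0.11, adjusted p = 0.915). In RAD21OE it had 52.1, 48.9 and 44.9 CPM, against 53.8, 55.0 and 55.6 CPM in EV. The groups did not overlap, and the change (-0.17, SE 0.09) did not pass (adjusted p = 0.181), nor without RAD21OE replicate 3 (-0.12, adjusted p = 0.240).

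**Figure D3:**
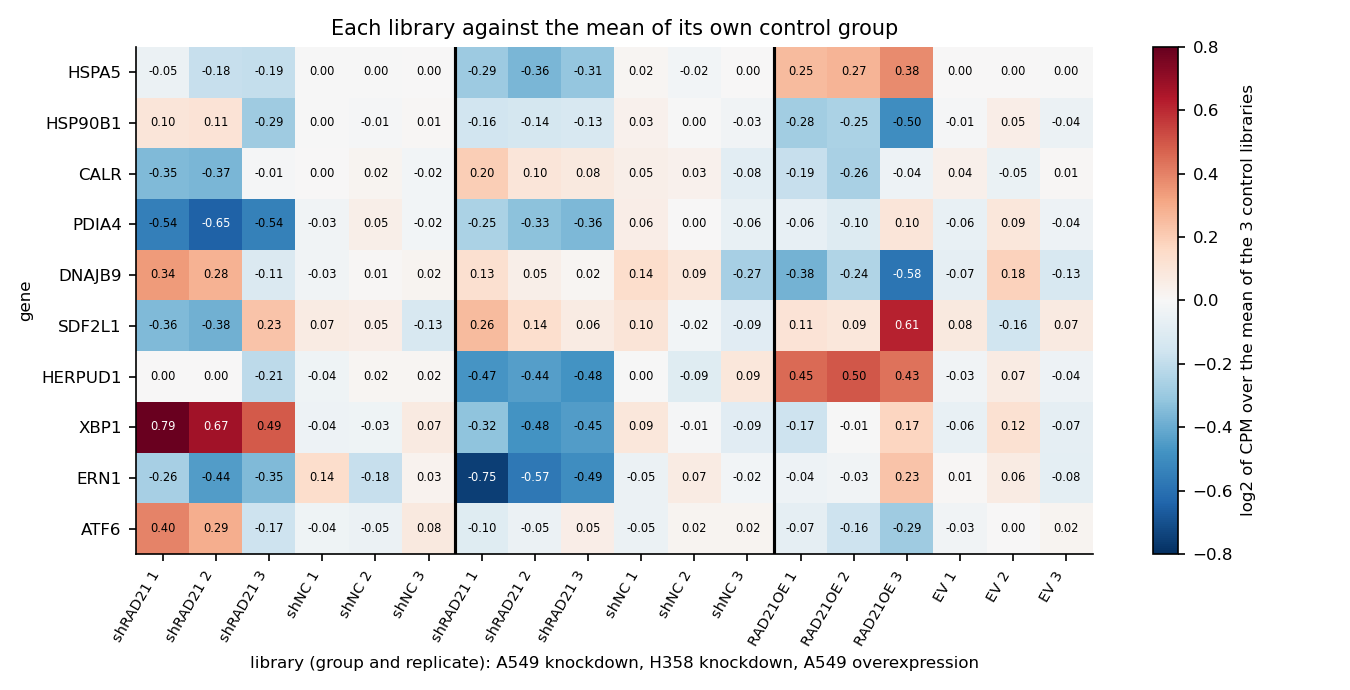
Log2 of each library's CPM over the mean CPM of the 3 control libraries of its comparison, for the 10 genes (rows) in the 18 libraries (columns; A549 knockdown, H358 knockdown and A549 overexpression from left to right, tinted red above and blue below 0). In A549 shRAD21 replicate 3 lies apart from replicates 1 and 2 for HSP90B1, CALR, DNAJB9, SDF2L1 and ATF6, and the 3 libraries lie together for PDIA4 and ERN1.

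When the difference between the lines was itself tested, the response to the knockdown differed in CALR (0.36, SE 0.11, adjusted p = 0.0352), PDIA4, HERPUD1 and XBP1. These are 4 of 10, where 17.6% of all genes tested did. CALR was lost in 9 of 20 alternative settings, each the loss of 1 library (A549 shRAD21 replicates 1 and 2, any A549 shNC library, H358 shRAD21 replicates 1 and 2, or H358 shNC replicates 2 and 3; adjusted p = 0.0526 to 0.0987). Without A549 shRAD21 replicate 3 the count was 8 of 10, and it was 1 to 3 without any other library. The share of all genes was not computed for these fits. XBP1 alone of the 4 passed in every alternative setting.

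Changes of the 10 genes in A549 also ran along GC content. After knockdown in A549, Spearman's rho between GC content and the log2 fold change was -0.770 over the 10 genes and -0.326 over all genes tested. In H358 after knockdown it was 0.127 and 0.183, and with overexpression 0.552 and 0.316. These are descriptions across genes, which share libraries and are not independent. With each library's trend on GC content and exon length removed, the A549 knockdown values of XBP1, PDIA4 and ERN1 were 0.54, -0.46 and -0.34 and kept their calls. HSPA5 was called lower at -0.20 (adjusted p = 0.00026), and HSP90B1 was called lower at -0.16 (adjusted p = 0.00558), farther from 0 than with TMM scaling alone. CALR lost its call at -0.10 (adjusted p = 0.101), and DNAJB9 and ATF6 were closer to 0. Leaving out shRAD21 replicate 3 moved the A549 values the opposite way from this correction, for all but ERN1, which hardly moved. CALR, DNAJB9, SDF2L1 and ATF6 stood at -0.36, 0.31, -0.37 and 0.35 without that library. With the correction they stood at -0.10, 0.06, 0.16 and 0.02. In H358 all 5 calls were kept, with values from -0.58 for ERN1 to -0.32 for HSPA5. With overexpression HSPA5 (0.32, adjusted p = 0.000172), HERPUD1 (0.45, adjusted p = 3.66e-05) and HSP90B1 kept theirs, and CALR was called lower (-0.23, adjusted p = 0.00166).

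**Figure D4:**
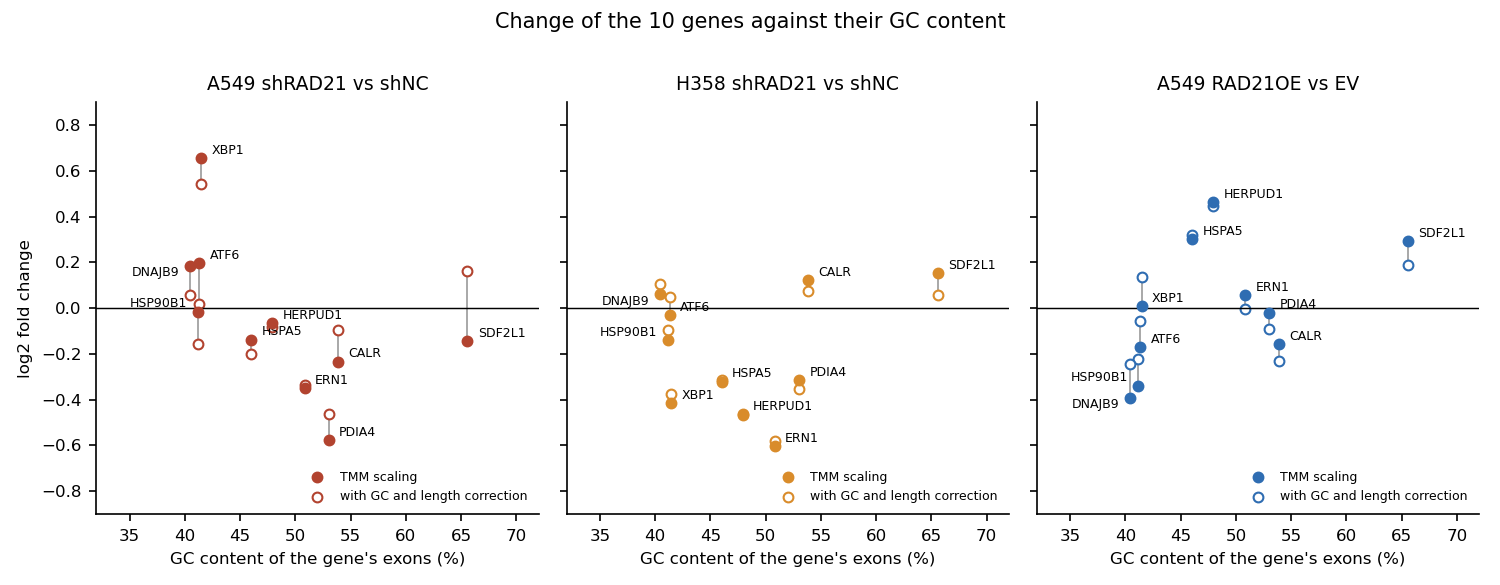
Log2 fold change of the 10 genes against the GC content (%) of the exons in the longest transcript of each gene, in the 3 comparisons. Filled points are the values with TMM scaling and open points, joined to them by a line, those after correction for GC content and length; in A549 after knockdown SDF2L1 stands at -0.15 with TMM scaling and at 0.16 with the correction, and PDIA4 at -0.58 and -0.46.

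Levels per length (CPM per kilobase of exon) put the chaperones on top in every group. In A549 shNC the order was HSPA5 at 179.5 ± 0.241, CALR at 169.7 ± 2.82, HSP90B1 at 165.2 ± 1.202 and PDIA4 at 110.2 ± 3.20 CPM per kilobase (SD, n = 3), and the ranges of neighbours did not overlap. SDF2L1 (24.0), XBP1 (18.3), HERPUD1 (9.15), ATF6 (6.41), DNAJB9 (5.07) and ERN1 (2.74) followed. In A549 shRAD21 the ranges of HSP90B1 (163.5 ± 24.4), HSPA5 (163.1 ± 9.38) and CALR (144.3 ± 20.9) overlapped between neighbours, PDIA4 stood at 73.9 ± 3.08, and XBP1 (28.8 ± 2.99) stood above SDF2L1 (21.7 ± 5.505) with overlapping ranges. In H358 HSPA5 stood apart, at 244.5 ± 6.26 in shRAD21 and 305.5 ± 4.45 CPM per kilobase in shNC, above HSP90B1 at 144.8 ± 1.34 and 159.7 ± 3.35. CALR stood between them in shRAD21 (168.1 ± 7.62), with no overlap, and overlapped with HSP90B1 in shNC (154.2 ± 7.54). The lowest place was held by ERN1 in H358 shRAD21 (1.45 ± 0.132) and by DNAJB9 in H358 shNC (1.78 ± 0.261). In RAD21OE HSPA5 (207.5 ± 9.95) led CALR (162.5 ± 12.8) and HSP90B1 (141.7 ± 12.7), whereas in EV CALR (181.3 ± 6.12) and HSP90B1 (179.2 ± 6.16), with overlapping ranges, led HSPA5 (168.3 ± 0.342). The summed CPM of the 10 genes was 2187 to 2391 in A549 shRAD21 against 2514 to 2532 in shNC, 2595 to 2691 in H358 shRAD21 against 2979 to 3102 in shNC, and 2467 to 2551 in RAD21OE against 2521 to 2603 in EV. It was lower without overlap after both knockdowns and overlapped with overexpression, and HSPA5 and HSP90B1 make up most of it.

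The 10 genes also varied with each other across the 18 libraries, after the mean of the control libraries of the line and table had been subtracted from log2 CPM. Of the 45 pairs, HSPA5 and HERPUD1 were the most alike (Pearson's r = 0.952 over 18 libraries), followed by HSPA5 and ERN1 (0.815) and by HSP90B1 and DNAJB9 (0.814). The least alike were SDF2L1 and ATF6 (-0.901) and SDF2L1 and HSP90B1 (-0.847). HSPA5 and HSP90B1 had r = -0.380. These values describe libraries that share controls and GC trends, and carry no test. HSP90B1, DNAJB9, XBP1 and ATF6 all have a GC content of 40.4% to 41.5%. Among 8306 genes with a mean of at least 10 CPM in each group, the 5 whose pattern was most like that of HSPA5 were DUSP5 (r = 0.975), GARS (0.972), ATP8B3 (0.964), CARS (0.960) and TSC22D3 (0.958). GARS, a glycyl-tRNA synthetase gene, had 142.1 ± 2.87 CPM in H358 shRAD21 against 194.6 ± 7.76 in shNC and 254.9 ± 8.36 CPM in RAD21OE against 186.7 ± 2.38 in EV (SD, n = 3), log2 fold changes of -0.45 and 0.45. In A549 after knockdown its log2 fold change was -0.05 (adjusted p = 0.621). DUSP5, a phosphatase of ERK, had log2 fold changes of -0.42 in A549 and -0.72 in H358 after knockdown and 0.91 with overexpression.

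The wider pathway was followed in 138 further genes in 7 lists, also chosen with earlier results of these data known. After knockdown in A549 26 of 136 tested were higher and 18 lower, in H358 3 were higher and 14 lower, and with overexpression 27 of 135 were higher and 14 lower. Over all genes tested 14.4% were higher and 10.9% lower in A549, 3.78% and 4.62% in H358, and 14.1% and 13.7% with overexpression. The median log2 fold change of the tested pathway genes was 0.04, -0.02 and 0.07, beside 0.005, 0 and -0.015 for all genes. Shares of all genes were not computed for the other fits, so their counts have no background beside them. Other fits moved the counts: with only the 6 libraries of the line they were 7 higher and 11 lower in A549 and 22 and 31 in H358, and with the GC and length correction 15 were higher in H358 and 46 with overexpression. In H358 5 were higher with DESeq2's Wald test and 6 with library totals alone, 1 was with the replicate number as a block, and with overexpression 22 were lower with no filter on low counts and 24 with that block. Of the pathway and heat shock genes called and named by rule, 36 in A549 after knockdown and 33 with overexpression, none lost its call without shRAD21 or RAD21OE replicate 3. Only 20 of the 36 and 16 of the 33 kept their call in every alternative setting, as did 9 of 17 in H358. Without A549 shRAD21 replicate 3 the numbers in A549 were 55 higher and 38 lower; without replicate 1 they were 15 and 11, and without replicate 2 18 and 11. In H358 0 or 1 was higher without any 1 library, and 9 were lower without shNC replicate 3 or shRAD21 replicate 2 or 3. With overexpression 15 to 17 were higher without any 1 EV library, and 2 to 7 were lower without any 1 EV library or RAD21OE replicate 2, against 24 without RAD21OE replicate 1.

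**Figure D5:**
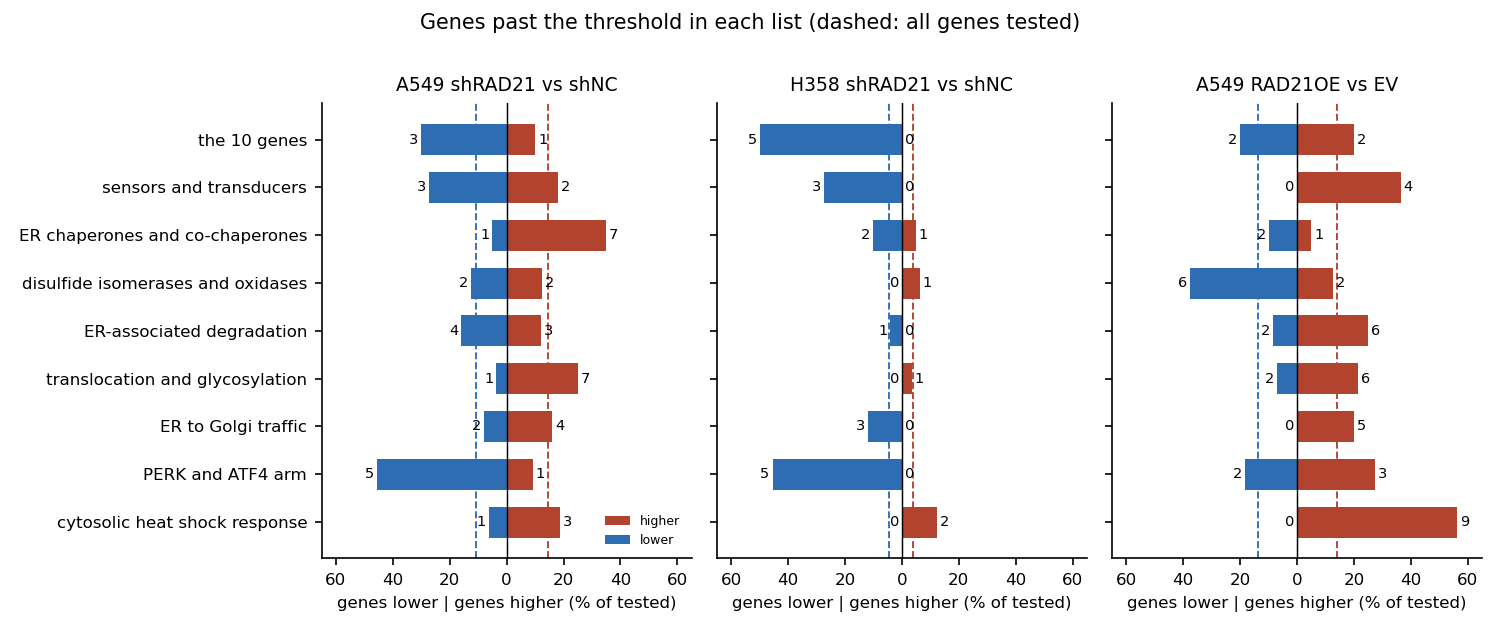
Share (%) of the tested genes of each list that were lower (left) or higher (right) at an adjusted p under 0.05, with the number of genes beside each bar and dashed lines at the share of all genes tested. The PERK and ATF4 arm had 5 of 11 genes lower in each line after knockdown. Of all genes 10.9% were lower in A549 and 4.62% in H358. The cytosolic heat shock list had 9 of 16 higher with overexpression, against 14.1% of all genes.

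Among the other sensors and transducers, 2 were higher and 3 lower of 11 tested in A549 after knockdown, 0 and 3 in H358, and 4 and 0 with overexpression. The shares of all genes tested were 14.4% higher and 10.9% lower in A549, 3.78% and 4.62% in H358, and 14.1% and 13.7% with overexpression. CREB3L2, a membrane-bound transcription factor related to ATF6, repeated the divided pattern of XBP1: it had 151.4 ± 18 CPM in A549 shRAD21 against 88.3 ± 2.69 in shNC (log2 fold change 0.78, adjusted p = 1.28e-06) and 66.4 ± 3.05 CPM in H358 shRAD21 against 87.7 ± 4.70 in shNC (-0.40, adjusted p = 0.00534). The difference between the lines was -1.18 (SE 0.12). EIF2AK3, which encodes PERK, had 28.0 ± 2.50 CPM in A549 shRAD21 against 22.2 ± 1.56 in shNC (0.34, adjusted p = 0.0259, lost in 8 of 15 alternative settings) and 17.9 ± 1.35 CPM in H358 shRAD21 against 24.9 ± 2.84 in shNC (-0.47, adjusted p = 0.0101, lost in 3 of 15), a difference of -0.81 between the lines (adjusted p = 0.00115). MBTPS1, the protease that makes the first cut in ATF6, fell in A549 after knockdown (-0.38, adjusted p = 0.000266) and not past the threshold in H358 (-0.08, adjusted p = 0.482). MAP3K5, the kinase ASK1 downstream of ERN1, fell in H358 (-0.72) and rose with overexpression (0.65). TRAF2, the adaptor that links it to ERN1, fell in A549 after knockdown (-0.47, adjusted p = 0.0350, lost in 5 of 15 alternative settings) and rose with overexpression (0.58). The cell death effector BAX fell in A549 after knockdown (-0.68), and its partner BAK1 and the factor CREB3 rose with overexpression (0.36 and 0.27). The call of BAK1 was lost without any 1 EV library (adjusted p up to 0.118). That of CREB3 was lost in 9 of 14 alternative settings (adjusted p up to 0.193), which included DESeq2's Wald test, limma-voom, both other filters and library totals alone. ATF6B, MBTPS2 and CREB3L1 passed in none of the 3 comparisons, and ERN2 was too low to be tested.

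Of the chaperone list 7 of 20 genes were higher and 1 lower in A549 after knockdown, where 14.4% of all genes were higher and 10.9% lower: CLGN, a calnexin-like chaperone, had 12.9 ± 2.85 CPM in shRAD21 against 5.05 ± 0.286 in shNC (1.36), and FKBP7, a prolyl isomerase, rose by 0.67. DNAJC3, the cochaperone P58IPK, rose by 0.33 (adjusted p = 0.00897), which was lost in 2 of 15 alternative settings, and FKBP2 fell (-0.70, lost in 6 of 15). The median of the list was -0.01, although more of its genes passed as higher than as lower. In H358, where 3.78% of all genes were higher and 4.62% lower, 1 was higher, SERPINH1, the collagen chaperone (0.36), and 2 were lower, FKBP14 and MANF (-0.50 and -0.31), and each of these calls was lost in at least 3 of 15 alternative settings. With overexpression, where the shares of all genes were 14.1% and 13.7%, 1 was higher, SDF2, the paralog of SDF2L1 (0.37), and 2 lower, UGGT2 (-0.61) and FKBP7 (-0.55), and each was lost in at least 1 of its alternative settings. Of the disulfide isomerases and oxidases 2 were higher and 2 lower of 16 in A549 after knockdown and 1 and 0 in H358. With overexpression 2 were higher (TXNDC11 by 0.51 and the peroxiredoxin gene PRDX4 by 0.45) and 6 lower, led by the oxidase ERO1B, with 9.16 ± 3.09 CPM in RAD21OE against 17.8 ± 0.770 in EV (-0.96, adjusted p = 0.00303).

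Of the genes of ER-associated degradation 3 of 25 were higher and 4 lower in A549 after knockdown, near the shares of all genes there (14.4% and 10.9%). EDEM2, a mannosidase that marks misfolded glycoproteins, had 36.2 ± 2.78 CPM in shRAD21 against 63.0 ± 1.46 in shNC (-0.80, adjusted p = 2.26e-06). SELENOS, a selenoprotein of the retrotranslocation machinery, fell there (-0.46) and rose with overexpression (0.52), and both calls held in every alternative setting. With overexpression 6 of 24 were higher, AUP1 (0.70) and FAF2 (0.47) among them, and 2 lower, where 14.1% and 13.7% of all genes were. In H358 EDEM1 alone passed, lower (-0.27, adjusted p = 0.0429, lost in 8 of 15 alternative settings). Of all genes tested in H358, 3.78% were higher and 4.62% lower. In the translocation and glycosylation list TRAM1, a membrane protein at the translocation channel, had 1322 ± 178 CPM in A549 shRAD21 against 391.6 ± 11.2 in shNC (1.76, adjusted p = 1.01e-10) and 400.3 ± 89.7 CPM in RAD21OE against 748.1 ± 17.7 in EV (-0.90, adjusted p = 0.000252). Its rise in H358 was 0.29 (adjusted p = 0.0424), lost in 7 of 15 alternative settings. The list had 7 higher and 1 lower of 28 in A549 after knockdown, 1 and 0 in H358, and 6 and 2 with overexpression, where SRPRB (0.51) and STT3A (0.41) rose. In the list of ER to Golgi traffic SEC24D and SEC23A, coat proteins of the vesicles that leave the ER, fell in H358 (-0.69 and -0.56), and SEC24D rose with overexpression (0.62). That list had 4 higher and 2 lower of 25 in A549, 0 and 3 in H358, and 5 and 0 with overexpression. In A549 SEC24A (0.53) was among the higher genes, and KDELR1 (-0.26) and TMED9 (-0.46) were the lower ones.

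In the PERK and ATF4 arm 1 of 11 genes was higher and 5 lower in A549 after knockdown, 0 and 5 in H358, and 3 and 2 with overexpression. Beside this, 14.4% of all genes tested were higher and 10.9% lower in A549, 3.78% and 4.62% in H358, and 14.1% and 13.7% with overexpression. CHAC1, an ATF4 target that degrades glutathione, had 1.60 ± 0.449 CPM in A549 shRAD21 against 5.17 ± 1.27 in shNC (-1.71, adjusted p = 1.77e-05) and 5.10 ± 0.419 CPM in H358 shRAD21 against 11.9 ± 1.02 in shNC (-1.22, adjusted p = 0.000202). SESN2, a sestrin, fell in both lines (-0.67 and -0.78), and TRIB3, a pseudokinase, fell in H358 (-0.54). PPP1R15B was the 1 gene higher in A549 (0.42, adjusted p = 0.000175), a call kept in all 15 alternative settings. With overexpression ATF3 was higher (0.44, lost in 2 of 14 alternative settings) and NUPR1 lower (-0.40, lost in 4 of 14). PPP1R15A, the phosphatase subunit GADD34 that restores translation, fell in A549 after knockdown (-0.63) and rose with overexpression (0.38, adjusted p = 0.00844, lost in 2 of 14 alternative settings). ATF4 itself rose with overexpression (0.30, adjusted p = 0.0186, lost without any 1 EV library, adjusted p up to 0.0848), and DDIT3, which encodes CHOP, was lower there (-0.55, adjusted p = 0.0274, lost in 4 of 13). Named after their values were seen, DDIT3 was also lower in A549 after knockdown (-0.77, adjusted p = 0.00417), and ATF4 was lower in H358 (-0.45, adjusted p = 0.0013). For comparison, of 16 genes of the cytosolic heat shock response 3 were higher and 1 lower in A549 after knockdown, 2 and 0 in H358, and 9 and 0 with overexpression. In A549 CRYAB (2.25), HSPD1 (0.29) and HSP90AA1 (0.27) were higher and BAG3 (-0.45) was lower. HSPA8, the constitutive cytosolic Hsp70, had 1702 ± 90.9 CPM in RAD21OE against 1142 ± 90.2 in EV (0.58, adjusted p = 0.000213).

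The genes that hold an exact ERSE in the same promoter window were 25, of which 4 are HSPA5, HSP90B1, CALR and XBP1. Of the others, 14 had enough reads for a test after knockdown and 12 after overexpression. In A549 after knockdown 2 were higher and 1 lower, in H358 2 and 0, and with overexpression 1 and 1, with medians of -0.02, -0.06 and 0.02 on the log2 scale. Of all genes 14.4% were higher and 10.9% lower in A549, 3.78% and 4.62% in H358, and 14.1% and 13.7% with overexpression. Named after their values were seen, SERP1, a protein of the translocation channel, rose in all 3 comparisons (0.83, 0.46 and 0.25; adjusted p = 6.18e-08, 0.000339 and 0.0311), SYNPO was lower in A549 (-0.54) and higher in H358 (0.66) after knockdown, and CANX, which encodes calnexin, was higher in A549 (0.26). HSPA5 and HSP90B1 carry the same element and moved in opposite directions with overexpression, and XBP1 moved in opposite directions in the lines. The 4 promoters without an exact match in this window include those of PDIA4 and ERN1, which fell after knockdown in both lines. Inexact elements were not searched, and the part of any element in these changes was not tested.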

How the data were processed

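RNA-seq counts per gene were deposited as whole numbers in 2 tables, one of the 12 knockdown and one of the 6 overexpression libraries. Per the submitters' processing notes the authors used fastp, HISAT2 2.0.5 and featureCounts 1.5.0-p3 with hg38, and the gene coordinates in the tables equal GENCODE 29 for all 58735 genes. Strandedness is not stated in the sources at hand. Total counts were 15155077 to 19277568 in the knockdown and 13024640 to 14276335 in the overexpression.

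From the deposited counts, each table was filtered (filterByExpr), scaled (TMM) and fitted with edgeR 4.0.16 in R 4.3.3, with 1 mean per group. The two-sided quasi-likelihood F-test was adjusted by Benjamini-Hochberg over all genes tested (18939 and 15462), and genes were called at an adjusted p under 0.05. The fit of the knockdown covered both lines, and a contrast tested H358 minus A549. The biological coefficient of variation was 0.0864 and 0.0981. CPM used library size times TMM factor, and likeness between genes was Pearson's r of log2(CPM + 0.5).

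Alternatives were DESeq2 1.42.0 size factors and Wald test, limma 3.58.1 voom, no filter, at least 10 CPM in 3 libraries, only the 6 libraries of a line, a replicate block, lowess offsets (span 0.3) for GC content and length, and each library left out. GC content was that of the longest transcript of a gene, and length was that of its merged exons. Scaling by library totals alone was added after seeing the data. Python 3.11.15, numpy 2.4.6, pandas 2.3.3, scipy 1.17.1 and matplotlib 3.10.9 did the rest, and the fit was tested on simulated data.

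The 10 genes and the lists were chosen with earlier results of these data known. The rule took all 10 genes and all sensors and transducers. It took up to 3 higher and 3 lower genes per list and comparison, with the smallest adjusted p. It also took the 5 genes most like HSPA5 among those with a mean of at least 10 CPM in each group. The text gives only a part of the genes that the rule took from the lists. Others are said to be named after their values were seen. Same-numbered replicates are not described as pairs in the labels.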

Additional observations from a re-analysis of the deposited data

Results flagged for a closer look

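The knockdown change of 4 of the 10 genes differed between H358 and A549 by a test of the difference itself (edgeR quasi-likelihood F-test). On the log2 scale, H358 minus A549, XBP1 differed by -1.071 (adjusted p = 6.02e-06), being lower than its control in 3 of 3 H358 knockdown libraries and higher in 3 of 3 A549 ones. HERPUD1 differed by -0.399 (adjusted p = 0.0224), CALR by 0.358 (adjusted p = 0.0352) and PDIA4 by 0.263 (adjusted p = 0.0361). XBP1 passed in all 20 alternative settings, CALR and PDIA4 were lost in 9 of 20 and HERPUD1 in 11 of 20. RAD21 was at 70.4% of its control in H358 and at 47.4% in A549, and the part of this difference in depth was not tested.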

How the results depend on the processing

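Of 640 recomputed values of the 10 genes, 553 kept their direction and their side of the threshold, 48 lost a call, 19 gained one and 20 changed sign; 19 of the 20 were called in neither fit. RAD21 kept both in 64 of 64. The 5 calls in H358, XBP1 and PDIA4 in A549 after knockdown, and HSPA5, HSP90B1 and HERPUD1 with overexpression passed in every alternative run. Counts without 1 library ranged from 1 to 4 higher and 1 to 5 lower in A549 after knockdown, stayed at 0 higher and 5 lower in H358 and at 2 higher with overexpression, and ranged from 1 to 2 lower with overexpression and from 1 to 8 for the difference between lines. The same ranges for the 138 pathway genes were 15 to 55 higher and 11 to 38 lower in A549, 0 to 1 and 9 to 11 in H358, and 15 to 38 and 2 to 24 with overexpression. Shares of all genes were not computed for any of the alternative fits.

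With only the 6 libraries of a line, 7 pathway genes were higher and 11 lower in A549, and 22 higher and 31 lower in H358. In that fit 1 of the 10 genes, CALR, was higher in H358. Pathway genes higher in H358 numbered 5 with DESeq2's Wald test, 15 with the GC and length correction and 6 with library totals alone, which was chosen after seeing the data. With overexpression the correction gave 46 pathway genes higher, no filter 22 lower, and DESeq2's Wald test or no filter 1 of the 10 genes lower. The cause of these moves was not tested. Deviations of same-numbered libraries from their group means were correlated weakly or not at all (from -0.037 to 0.067). Such values cannot tell whether the numbers mark pairs. With the replicate block 2 of the 10 genes differed between lines, 1 pathway gene was higher in H358 and 24 were lower with overexpression, while the 10 genes kept 1 higher and 3 lower in A549, 0 and 5 in H358, and 2 and 2 with overexpression.

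Signs changed as follows in log2 fold change. In A549 after knockdown, without shRAD21 replicate 3, HSP90B1 was 0.104, HERPUD1 0.004 and CREB3 -0.093. With the GC and length correction SDF2L1 was 0.161, BAK1 0.044 and MBTPS2 -0.023. CREB3 was also -0.03 with library totals, -0.01 with no filter, -0.01 with only the 6 libraries and -0.029 without shNC replicate 3. In H358 the correction gave ATF6 0.05, ATF6B -0.03, MBTPS2 0.039 and TRAF2 -0.002. There DNAJB9 was -0.052 without shNC replicate 3, ATF6B -0.001 without shNC replicate 2 and ATF6 0.002 without shRAD21 replicate 1. With overexpression PDIA4 was 0.03 without EV replicate 2, and 0.007 and 0.025 without RAD21OE replicates 1 and 2. XBP1 was -0.032 at 10 CPM, -0.031 with library totals, -0.019 and -0.027 without EV replicates 1 and 3, and -0.082 without RAD21OE replicate 3. ERN1 was -0.003 with the correction and -0.032 without RAD21OE replicate 3, and MBTPS2 -0.014 without RAD21OE replicate 1. At the other end of the fits without 1 library, HSP90B1 was -0.079, HERPUD1 -0.101 and CREB3 0.103 in A549 after knockdown, DNAJB9 0.135, ATF6 -0.07 and ATF6B 0.074 in H358, and PDIA4 -0.081, XBP1 0.091, ERN1 0.109 and MBTPS2 0.175 with overexpression. For the difference between lines the correction gave HSP90B1 0.064, DNAJB9 0.046, SDF2L1 -0.103 and ATF6 0.031. The number of libraries, 3 a group, and for DNAJB9 in H358 a level near 5 CPM, limit what can be shown.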
